A study of Mus musculus with 6 samples.

Results

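Messenger RNA of 9 genes that fasting and the peroxisome proliferator-activated receptors (PPARs) induce was followed in mouse hearts: Angptl4, Pdk4, Ucp2, Ucp3, Acot1, Acot2, Plin2, Plin4 and Plin5. The genes were picked by symbol from a table of 26835 genes. The rule did not use their measured values, but earlier results of these data were known when they were chosen. Each symbol stood in 1 row, and all 9 were among the 10329 genes that passed the filter on low values (a mean over all libraries of at least 1 FPKM, the unit that scales fragments to transcript length and library depth). The study sequenced heart RNA of C57BL/6 mice, with the genotype given as "wide type", aged 7 to 8 weeks and weighing 20 g ± 2 g. There were 3 groups of 2 libraries. CFZ_EA mice were given carfilzomib at 8 mg/kg and electroacupuncture, a current passed through needles, at the PC6 acupoint. CFZ mice were given carfilzomib at 8 mg/kg, and control mice 10% DMSO, both by intraperitoneal injection. Carfilzomib is a proteasome inhibitor used against multiple myeloma that can harm the heart. The labels give days 0, 2, 4 and 6 for each library without saying what was done on which day. Neither the piece of heart used nor the origin of the libraries of a group (separate mice or not) is stated. The p-values then measure only the spread between these libraries, which may be technical.

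PPARs are nuclear receptors that bind fatty acids and, paired with a retinoid X receptor, switch on genes for taking up, storing and burning fat. The heart draws most of its energy from fatty acids, and in fasting its PPAR targets help it to spare glucose. Among the genes described here, Angptl4 encodes a secreted inhibitor of lipoprotein lipase, the enzyme that frees fatty acids from lipoproteins in the capillaries. Pdk4 encodes a kinase that shuts off the pyruvate dehydrogenase complex and so the oxidation of glucose. Ucp2 and Ucp3 encode carriers of the inner mitochondrial membrane. Acot1 and Acot2 encode thioesterases that split acyl-CoA into fatty acid and coenzyme A, Acot1 in the cytosol and Acot2 in mitochondria. Plin2, Plin4 and Plin5 encode perilipins, which coat lipid droplets, and Plin5 is the form typical of oxidative tissues such as the heart.

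The promoters of 8 members were found in a RefSeq table (GRCm38.p6) that gives the 250 bases before and 50 bases after each gene's start. Angptl4 was not among them. AGGTCA, the repeat unit of PPAR binding elements, was searched on both strands, and 3 of the 8 promoters held it (Ucp3, Plin2 and Plin5), against 13.3% of 14553 promoters in the table. The full element, 2 such units in a row with 1 base between them, was in 0 of the 8 and in 0.0618% of the table's promoters. Only exact letters were searched, and with so rare a match 0 of 8 says nothing about these promoters. For the 3 promoters that hold the unit, the part from 250 bases before the RefSeq start up to the base before the gene model in the deposited table is shown, 5′ to 3′ on the gene's strand, with the unit in capitals. It starts 149 and 44 bases before the RefSeq start in Ucp3, 218 before it in Plin2, where it is on the other strand and so reads TGACCT, and 170 before it in Plin5. A match of letters is a description and does not show binding, and the lack of a match does not show that binding is absent. The stretches lie at chr7:100472741-100472989 (+), chr4:86670061-86670309 (-) and chr17:56117597-56117798 (-).
Ucp3: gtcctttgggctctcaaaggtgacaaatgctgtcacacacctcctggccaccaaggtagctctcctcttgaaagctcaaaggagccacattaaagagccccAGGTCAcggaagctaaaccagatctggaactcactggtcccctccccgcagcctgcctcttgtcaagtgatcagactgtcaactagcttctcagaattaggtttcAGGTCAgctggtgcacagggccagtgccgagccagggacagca
Plin2: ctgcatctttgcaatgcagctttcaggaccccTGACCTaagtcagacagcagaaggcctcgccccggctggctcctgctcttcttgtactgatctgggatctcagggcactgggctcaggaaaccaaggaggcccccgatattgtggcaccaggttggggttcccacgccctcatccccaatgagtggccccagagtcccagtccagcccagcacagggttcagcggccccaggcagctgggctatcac
Plin5: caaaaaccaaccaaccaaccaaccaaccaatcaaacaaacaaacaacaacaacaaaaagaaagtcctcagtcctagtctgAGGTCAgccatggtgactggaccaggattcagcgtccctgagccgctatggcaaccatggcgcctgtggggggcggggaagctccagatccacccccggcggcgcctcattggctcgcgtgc

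Of the 9 members, 6 lie as neighbour pairs on 1 strand, with 0 genes of the table between them. Ucp3 (ENSMUSG00000032942, chr7:100472990-100486432 on GRCm38, the build of all coordinates here) is followed by Ucp2 (ENSMUSG00000033685, chr7:100493337-100502020) after 6904 bases. Acot2 (ENSMUSG00000021226, chr12:83987861-83993873) is followed by Acot1 (ENSMUSG00000072949, chr12:84009490-84018371) after 15616 bases. Plin4 (ENSMUSG00000002831, chr17:56100591-56109803) and Plin5 (ENSMUSG00000011305, chr17:56111601-56117596) are 1797 bases apart. The Acot pair are close copies: their coding sequences of 1257 bases (Acot1) and 1359 bases (Acot2) were 95.3% identical over 1236 aligned bases, with a longest shared run of 273 bases. Of the stretches of 150 bases, the read length, 18.9% of those in Acot1 were also in Acot2. A stretch of 150 coding bases from 1 exon of each gene shows this, at chr12:84016946-84017095 (Acot1) and chr12:83992668-83992817 (Acot2), both on the + strand of GRCm38. Capitals mark the 13 bases that differ, and all of them lie in the left part. Read sequence within the right part is the same for both genes, so the separate values of Acot1 and Acot2 are uncertain.
Acot1: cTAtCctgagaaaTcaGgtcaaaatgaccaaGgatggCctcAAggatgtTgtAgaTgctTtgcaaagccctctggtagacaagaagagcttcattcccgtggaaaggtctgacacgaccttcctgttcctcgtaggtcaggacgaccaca
Acot2: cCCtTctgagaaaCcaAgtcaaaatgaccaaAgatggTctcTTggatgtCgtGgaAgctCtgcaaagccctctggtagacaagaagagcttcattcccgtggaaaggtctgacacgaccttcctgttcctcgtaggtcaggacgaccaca

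Deposited counts totalled 50013990 to 75742448 per library, and the members had 391 to 29653 counts in a library. Control replicate 2 stood apart from the other 5 libraries in a principal component analysis of log2 CPM (48.0 on the first component, against -22.1 to 0.37), and CFZ_EA replicate 2 was at the high end of the second (27.4). Summed atrial markers ran from 209 to 5720 FPKM over the libraries, with both CFZ libraries lowest. Macrophage and fibroblast marker sums were highest in control replicate 2. The summed levels of 10 cardiomyocyte markers were 28670 to 37080 FPKM over the libraries, and none of them was at 0. Ucp1, the marker of brown fat, had no row under this symbol in the deposited table, so no level can be given for it.

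No member passed the test in any comparison. Over all 10329 genes, the quasi-likelihood test of edgeR, with p-values adjusted by Benjamini-Hochberg, called 3 genes for CFZ against control (0.029%), 2 for CFZ_EA against CFZ (0.0194%) and 0 for CFZ_EA against control (0%), and 0 of the 9 members in each. At an unadjusted p under 0.05 edgeR again had 0 of the 9 in each comparison, where all tested genes had 7.72%, 3.09% and 5.13%. DESeq2, which called 138, 55 and 51 genes in all, called 0 of the 9, and had 1 of them, Ucp2 for CFZ against control, at an unadjusted p under 0.05. The share of all tested genes under that threshold in DESeq2 is not given here, so this 1 gene cannot be set against it. The levels and the spread of each member follow, since with 2 libraries a group the intervals are wide. A 2-fold difference in either direction lay outside the 95% interval for 4 members in CFZ against control and for 3 in each of the other comparisons.

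**Figure D1:**
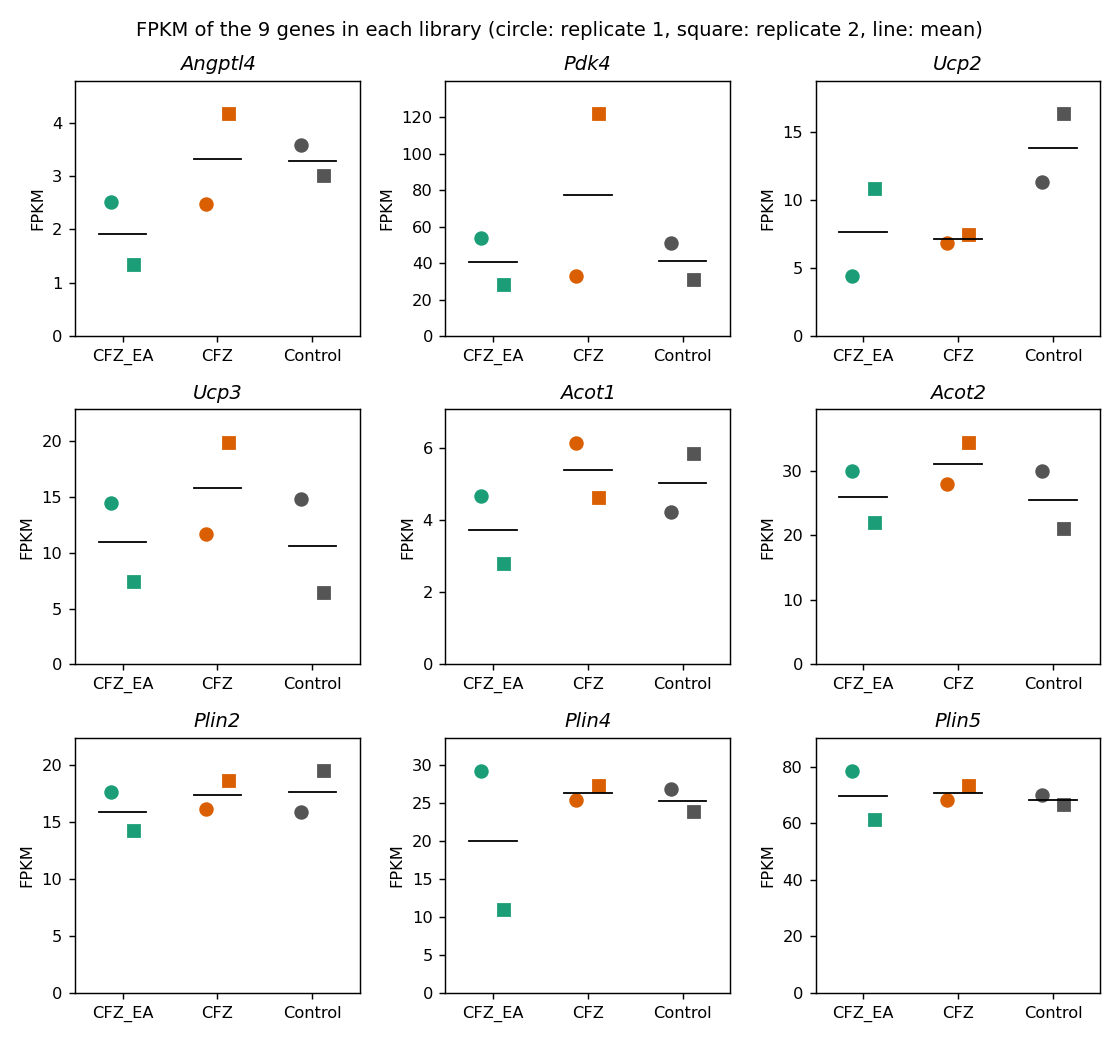
Level of each member in FPKM in every library, by group (CFZ_EA, CFZ, Control). Circles are replicate 1, squares replicate 2 and lines the mean of the 2 libraries. Pdk4 in CFZ replicate 2 reached 122 FPKM, while the other 5 libraries had 28.0 to 53.5, and Ucp2 was lower in both CFZ libraries than in both control libraries.

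Angptl4 (ENSMUSG00000002289, chr17:33773750-33781830, - strand), the secreted lipase inhibitor, was the member of lowest level, and its mean was lowest in CFZ_EA hearts. It had 2.51 and 1.32 FPKM in CFZ_EA replicates 1 and 2, 2.47 and 4.16 FPKM in CFZ, and 3.57 and 3.00 FPKM in control. Both CFZ_EA libraries lay below both control libraries, which holds for 22.1% of all tested genes, and CFZ overlapped both other groups. The group means were 1.92 ± 0.838 FPKM in CFZ_EA, 3.31 ± 1.20 in CFZ and 3.29 ± 0.408 in control (SD, n = 2 each). The log2 fold change was -0.80 ± 0.40 (SE) for CFZ_EA against CFZ (95% interval -1.77 to 0.17, edgeR adjusted p = 1.0) and -0.73 ± 0.40 for CFZ_EA against control (-1.70 to 0.25, edgeR adjusted p = 0.848). Single libraries carried much of both: the value for CFZ_EA against CFZ was -0.42 without CFZ_EA replicate 2 and -0.31 without CFZ replicate 2, and that for CFZ_EA against control was -0.35 without CFZ_EA replicate 2. For CFZ against control it was 0.07 ± 0.39, and -0.42 without CFZ replicate 2 and -0.11 without control replicate 2. Lipoprotein lipase itself, Lpl, had 108 and 136 FPKM in CFZ_EA, 77.7 and 128 FPKM in CFZ and 128 and 84.1 FPKM in control, with the groups overlapping. Gpihbp1, the protein that anchors the lipase on capillary endothelium, had 27.9 and 27.6 FPKM in CFZ_EA, 31.1 and 40.6 FPKM in CFZ and 30.7 and 30.0 FPKM in control.

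Pdk4 (ENSMUSG00000019577, chr6:5483351-5496309, - strand), the kinase that blocks pyruvate oxidation, had the widest spread of the 9 genes, and 1 library raised its CFZ mean. It measured 53.5 and 28.0 FPKM in CFZ_EA, 33.1 and 122 FPKM in CFZ, and 51.2 and 30.5 FPKM in control. CFZ replicate 2 was the highest of all libraries, CFZ replicate 1 lay within the range of the other groups, and all 3 groups overlapped. The means were 40.8 ± 18.0 FPKM in CFZ_EA, 77.3 ± 62.5 in CFZ and 40.8 ± 14.6 in control (SD, n = 2 each). Its log2 fold change was 0.99 ± 0.67 for CFZ against control (95% interval -0.65 to 2.62, edgeR adjusted p = 0.727) and -0.95 ± 0.67 for CFZ_EA against CFZ (-2.58 to 0.69, edgeR adjusted p = 1.0). Without CFZ replicate 2 these values turned to -0.32 and 0.36. For CFZ_EA against control it was 0.04 ± 0.66, and -0.47 without CFZ_EA replicate 1 and -0.34 without control replicate 2.

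Pdk4 is 1 of 4 kinases of pyruvate dehydrogenase, and Pdk2 was the most abundant of them in every library. Of the summed FPKM of Pdk1 to Pdk4, Pdk4 made up 23.5% and 15.4% in CFZ_EA, 15.2% and 40.7% in CFZ, and 23.3% and 17.2% in control. The share of Pdk2 was 56.1% in CFZ replicate 2 and 71.5% to 79.7% in the other 5 libraries. Pdk2 itself measured 163 and 143 FPKM in CFZ_EA, 173 and 168 FPKM in CFZ and 158 and 137 FPKM in control, so the low share in CFZ replicate 2 went with a high Pdk4 and not with a low Pdk2. The other kinases were low, with Pdk1 at 8.38 to 10.6 FPKM and Pdk3 at 0.661 to 1.80 FPKM over the 6 libraries.

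**Figure D2:**
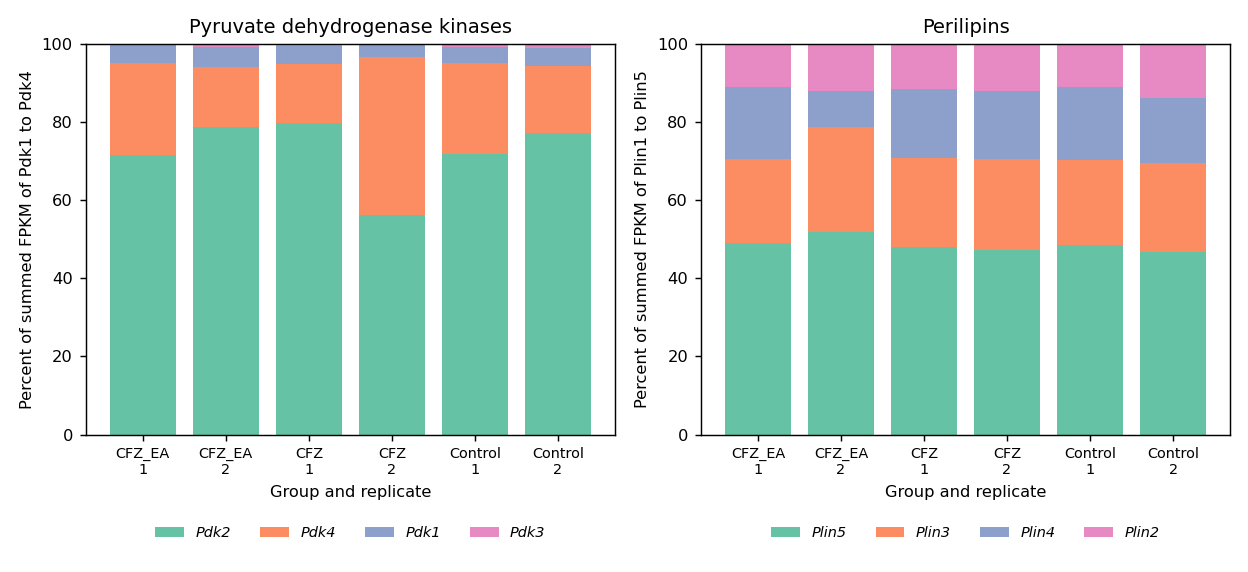
Share of each pyruvate dehydrogenase kinase in the summed FPKM of Pdk1 to Pdk4 (left) and of each perilipin in the summed FPKM of Plin1 to Plin5 (right), in percent, for every library; Plin1 is too low to be seen and is not drawn. Pdk4 took 40.7% in CFZ replicate 2 against 15.2% to 23.5% in the other libraries, and Plin4 took 9.19% in CFZ_EA replicate 2 against 16.8% to 18.6%.

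Ucp2, a carrier of the inner mitochondrial membrane found in many tissues and in immune cells, was the one member with its 2 CFZ libraries below its 2 control libraries. It had 4.44 and 10.8 FPKM in CFZ_EA, 6.82 and 7.45 FPKM in CFZ, and 11.3 and 16.3 FPKM in control. Both carfilzomib groups lay below control without overlap, and CFZ lay inside the range of CFZ_EA. Of all tested genes, 20.8% were lower in CFZ than in control and 22.1% lower in CFZ_EA than in control in this sense. The means were 7.62 ± 4.50 FPKM in CFZ_EA, 7.13 ± 0.447 in CFZ and 13.8 ± 3.52 in control (SD, n = 2 each). In Ucp2 the log2 fold change was -0.89 ± 0.41 for CFZ against control (95% interval -1.89 to 0.12), with an unadjusted p = 0.0737 and an adjusted p = 0.658 in edgeR, and an unadjusted p = 0.0321 and an adjusted p = 0.406 in DESeq2. It was -0.78 ± 0.41 for CFZ_EA against control (-1.78 to 0.22, edgeR adjusted p = 0.848); both comparisons use the same control libraries. With 1 library left out, the value for CFZ against control ran from -1.07 to -0.68 and that for CFZ_EA against control from -1.58 (without CFZ_EA replicate 2) to -0.26 (without CFZ_EA replicate 1). For CFZ_EA against CFZ it was 0.11 ± 0.41, and -0.69 without CFZ_EA replicate 2 and -0.00091 without CFZ replicate 1.

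The 3 libraries with the most Ucp2 were also the 3 highest in each of 5 marker sums: atrial, macrophage, fibroblast, epicardial and erythroid. These 5 were picked after the values were seen, and the other marker sums did not have the same 3 libraries highest. The endothelial sum (334 FPKM) and the cardiomyocyte sum (37080 FPKM), for example, were highest in CFZ replicate 2. Single markers of the 5 lists also departed: Cd68 had 8.00 FPKM in CFZ_EA replicate 2 and 8.20 and 9.08 FPKM in CFZ. Summed over 7 atrial cardiomyocyte markers, the level was 972 and 5720 FPKM in CFZ_EA, 341 and 209 FPKM in CFZ, and 2856 and 1617 FPKM in control. The highest in this sum were CFZ_EA replicate 2 and both control libraries. Summed over 8 macrophage markers, it was 239 and 280 FPKM in CFZ_EA, 237 and 272 FPKM in CFZ, and 313 and 916 FPKM in control, with control replicate 2 highest in both this sum and Ucp2. Fibroblast markers (8 genes) summed to 176 and 187 FPKM in CFZ_EA, 153 and 121 FPKM in CFZ and 193 and 946 FPKM in control, and epicardial markers (6 genes) to 4.58 and 11.6 FPKM in CFZ_EA, 3.95 and 3.66 FPKM in CFZ and 19.6 and 48.4 FPKM in control. Erythroid markers (5 genes), the RNA of red blood cells, summed to 2466 and 3470 FPKM in CFZ_EA, 2654 and 3316 FPKM in CFZ and 4962 and 5666 FPKM in control, and ranked the 6 libraries in the same order as Ucp2. None of the markers in these 5 lists was at 0 in any library. Their part in the level of Ucp2 was not tested. In bulk tissue, fewer cells of a type and less RNA per cell cannot be told apart.

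**Figure D3:**
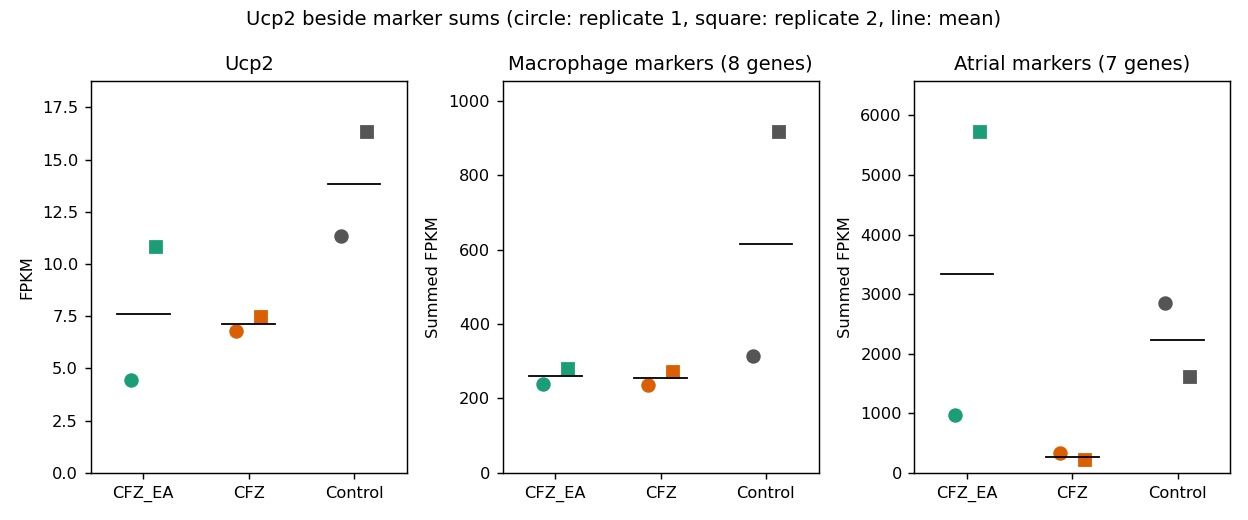
Ucp2 in FPKM (left), the summed FPKM of 8 macrophage markers (middle) and the summed FPKM of 7 atrial markers (right) in every library. Circles are replicate 1, squares replicate 2 and lines the mean of the 2 libraries. Ucp2 and both sums were highest in CFZ_EA replicate 2 and the 2 control libraries. The top library was control replicate 2 for Ucp2 and the macrophage sum, and CFZ_EA replicate 2 for the atrial sum.

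Ucp3, the relative of Ucp2 found mainly in skeletal muscle, heart and brown fat, differed from it in the order of the libraries. Its levels were 14.5 and 7.39 FPKM in CFZ_EA, 11.7 and 19.9 FPKM in CFZ, and 14.8 and 6.42 FPKM in control. CFZ replicate 2 was highest and control replicate 2 lowest, and all 3 groups overlapped. The group means were 10.9 ± 5.03 FPKM in CFZ_EA, 15.8 ± 5.79 in CFZ and 10.6 ± 5.93 in control (SD, n = 2 each). For Ucp3 the log2 fold change was 0.61 ± 0.54 for CFZ against control (95% interval -0.70 to 1.92, edgeR adjusted p = 0.782), and only 0.09 without control replicate 2 and 0.11 without CFZ replicate 2. It was -0.54 ± 0.54 for CFZ_EA against CFZ and 0.08 ± 0.54 for CFZ_EA against control, and the last value turned to -0.46 without CFZ_EA replicate 1 and -0.44 without control replicate 2. The value for CFZ_EA against CFZ was -0.14 without CFZ_EA replicate 2 and -0.04 without CFZ replicate 2. The ratio of Ucp3 to Ucp2 in FPKM was 3.27 and 0.684 in CFZ_EA, 1.71 and 2.67 in CFZ, and 1.31 and 0.393 in control. Ucp3 therefore exceeded its neighbour in 4 of 6 libraries, and Ucp2 was the higher of the pair in CFZ_EA replicate 2 and control replicate 2. The model of Ucp2 overlaps that of Dnajb13 on the opposite strand, and the model of Ucp3 overlaps the antisense gene Gm10603. Whether the counting used strand is not given in the sources used here, so some reads of these partners may be counted with them.

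Acot2, the mitochondrial thioesterase, was several times more abundant per length than its cytosolic copy Acot1 in all libraries. Acot2 measured 30.1 and 21.9 FPKM in CFZ_EA, 27.9 and 34.4 FPKM in CFZ, and 30.0 and 21.0 FPKM in control. Acot1 measured 4.67 and 2.78 FPKM in CFZ_EA, 6.16 and 4.63 FPKM in CFZ, and 4.23 and 5.85 FPKM in control. The groups overlapped for both genes. CFZ replicate 2 was highest in Acot2 and CFZ replicate 1 in Acot1. The log2 fold change of Acot2 was 0.33 ± 0.27 for CFZ against control (95% interval -0.32 to 0.99), -0.26 ± 0.27 for CFZ_EA against CFZ and 0.07 ± 0.27 for CFZ_EA against control. That of Acot1 was 0.16 ± 0.27 for CFZ against control, -0.52 ± 0.28 for CFZ_EA against CFZ (-1.19 to 0.15, edgeR adjusted p = 1.0) and -0.37 ± 0.28 for CFZ_EA against control (-1.04 to 0.31, edgeR adjusted p = 0.869). The ratio of Acot2 to Acot1 was 6.44 and 7.89 in CFZ_EA, 4.53 and 7.42 in CFZ, and 7.11 and 3.60 in control. Because the copies share stretches as long as a read, their counts were also summed. How reads of such stretches were assigned is not known. The sum gave log2 fold changes of 0.29 for CFZ against control, -0.32 for CFZ_EA against CFZ and -0.03 for CFZ_EA against control. None of these passed. For CFZ_EA against control, the value of Acot2 alone was -0.15 without CFZ_EA replicate 1 and -0.21 without control replicate 2, and that of Acot1 for CFZ against control was -0.0060 without CFZ replicate 1. Leaving out CFZ_EA replicate 2 gave -0.21 for CFZ_EA against CFZ and -0.05 for CFZ_EA against control in Acot1, and -0.06 for CFZ_EA against CFZ in Acot2. Acot1 for CFZ_EA against control was -0.19 without control replicate 2. Without CFZ replicate 2, Acot2 gave -0.04 for CFZ_EA against CFZ and 0.12 for CFZ against control, and the last was 0.04 without control replicate 2.

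Plin5, the perilipin of oxidative muscle, and Plin2, a perilipin of most tissues, were the steadiest of the 9 genes. Plin5 had 78.5 and 61.1 FPKM in CFZ_EA, 68.5 and 73.2 FPKM in CFZ, and 70.0 and 66.4 FPKM in control, and was the most abundant of the 9 genes on this scale. Plin2 (ENSMUSG00000028494, chr4:86648386-86670060, - strand) had 17.6 and 14.2 FPKM in CFZ_EA, 16.1 and 18.6 FPKM in CFZ, and 15.9 and 19.4 FPKM in control. In both genes the 3 groups overlapped, and the CFZ_EA libraries were the farthest apart for Plin5. The log2 fold change of Plin5 was 0.11 ± 0.16 for CFZ against control (95% interval -0.28 to 0.50), -0.02 ± 0.16 for CFZ_EA against CFZ (-0.41 to 0.37) and 0.09 ± 0.16 for CFZ_EA against control (-0.30 to 0.48). That of Plin2 was 0.04 ± 0.16 for CFZ against control (-0.36 to 0.44), -0.13 ± 0.16 for CFZ_EA against CFZ (-0.52 to 0.27) and -0.09 ± 0.16 for CFZ_EA against control (-0.48 to 0.31). All 6 intervals lie within a 1.5-fold change in either direction. The smallest bound, -0.52, corresponds to a fold of 0.696.

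Plin4, the perilipin of muscle and fat whose gene is the neighbour of Plin5, was even across 5 libraries and low in 1. It had 29.2 and 10.9 FPKM in CFZ_EA, 25.3 and 27.2 FPKM in CFZ, and 26.9 and 23.8 FPKM in control. CFZ_EA replicate 2 was the lowest library and CFZ_EA replicate 1 the highest, so the CFZ_EA group spanned both others. The atrial marker sum was also highest in CFZ_EA replicate 2 (5720 FPKM), and its part was not tested. The means were 20.0 ± 13.0 FPKM in CFZ_EA, 26.3 ± 1.31 in CFZ and 25.3 ± 2.18 in control (SD, n = 2 each). The log2 fold change was -0.39 ± 0.42 for CFZ_EA against CFZ (95% interval -1.42 to 0.63, edgeR adjusted p = 1.0) and -0.29 ± 0.42 for CFZ_EA against control. Without CFZ_EA replicate 2 these turned to 0.14 and 0.25. For CFZ against control it was 0.11 ± 0.42, and -0.04 without control replicate 2. The ratio of Plin5 to Plin4 was 5.63 in CFZ_EA replicate 2 and 2.61 to 2.79 in the other 5 libraries. Hdgfl2 overlaps the model of Plin4 on the opposite strand, so with strand use not given the level of Plin4 is uncertain.

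Among the perilipins, Plin5 was the main form in every library, with 46.8% to 51.8% of the summed FPKM of Plin1 to Plin5. Plin3, a perilipin found in most tissues, followed with 21.5% to 26.9%, and Plin2 made up 13.7% in control replicate 2 and less in the others. Plin1, the form of fat cells, measured 0.199 and 0.167 FPKM in CFZ_EA, 0.234 and 0 FPKM in CFZ, and 0.0570 and 0.0294 FPKM in control. Adipoq, the adiponectin gene of fat cells, measured 1.20 and 1.23 FPKM in CFZ_EA, 0.992 and 0.157 FPKM in CFZ, and 0.260 and 0.297 FPKM in control. Over 10 adipocyte markers the sum was 15.8 and 14.5 FPKM in CFZ_EA, 16.3 and 7.77 FPKM in CFZ and 12.6 and 14.1 FPKM in control. In CFZ replicate 2, where Pdk4, Ucp3, Acot2 and Angptl4 were highest, 7 of 10 adipocyte markers were at 0 and the atrial sum was the lowest of all libraries (209 FPKM); the part of tissue makeup in these levels was not tested.

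For CFZ against control, the log2 fold changes of 8 members were above 0 and 1, that of Ucp2, below, with a median of 0.11 where all tested genes had a median of -0.003. None passed, and the lowest edgeR adjusted p was 0.658. For CFZ_EA against CFZ, 1 member (Ucp2) was above 0 and 8 below, with a median of -0.39 where all tested genes had -0.008. The lowest unadjusted p was 0.091 (Angptl4), and every adjusted p was 1.0 in edgeR. For CFZ_EA against control, 4 were above and 5 below 0, with a median of -0.09 where all tested genes had -0.001. The 3 comparisons share libraries, so a high value in a CFZ library raises the first and lowers the second, and their opposite signs are not separate evidence.

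**Figure D4:**
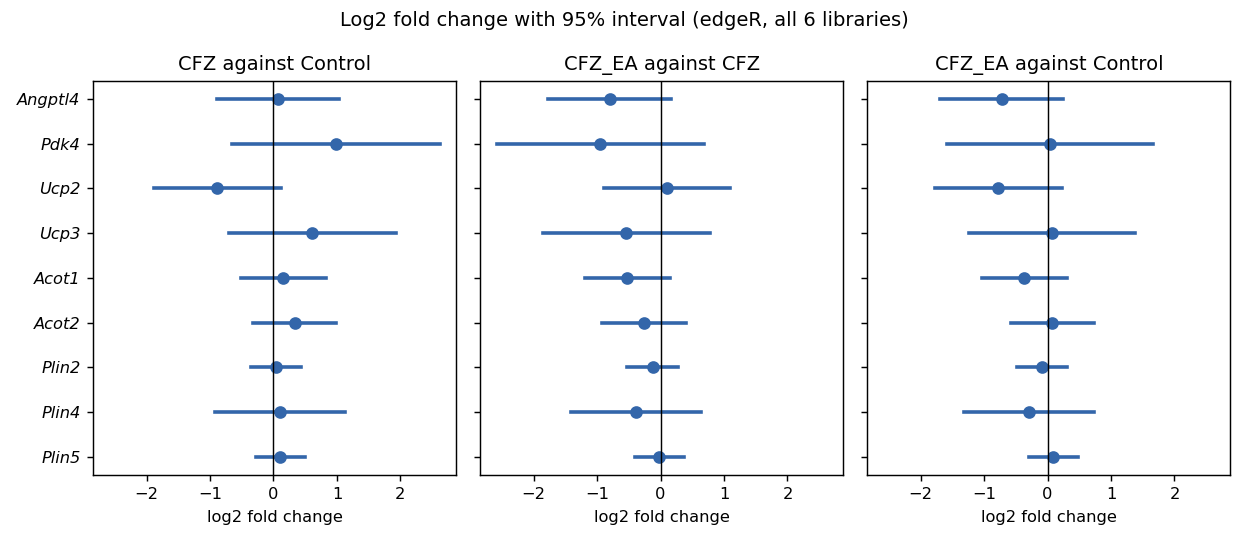
Log2 fold change of each member (points) with its 95% interval (bars) from the edgeR fit over all 6 libraries, for CFZ against control (left), CFZ_EA against CFZ (middle) and CFZ_EA against control (right). Every interval includes 0; those of Pdk4 are the widest and those of Plin2 and Plin5 the narrowest.

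The spread between libraries of 1 group was large for most members. On the log2 CPM scale, the within-group standard deviation was 0.956 for Pdk4, 0.754 for Ucp3, 0.588 for Plin4, 0.568 for Ucp2 and 0.523 for Angptl4, where the median tested gene had 0.181. These 5 genes lay at percentile 91.0 or higher of all tested genes in this measure. Acot2 had 0.354 and Acot1 0.346. Plin2 (0.183) and Plin5 (0.178) were near the median gene. The share of variance between the groups was 52.3% for Ucp2, 50.2% for Angptl4 and 47.8% for Acot1, and 12.4% to 26.5% for the other 6 members, where the median tested gene had 40.3%. For those 6 genes, most of the variance on this scale lay between libraries of the same group.

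Within the groups, 6 of the 9 members had the same order of libraries. For these (Angptl4, Pdk4, Ucp3, Acot2, Plin4 and Plin5) the FPKM value was higher in replicate 1 of CFZ_EA, in replicate 2 of CFZ and in replicate 1 of control. Of all tested genes, 611 (5.92%) had this order. Plin2 differed from it only in control, Acot1 in CFZ and control, and Ucp2 in CFZ_EA and control. This grouping was chosen after the values were seen and is a description of these 6 libraries. The root mean square difference of centred log2 CPM over the 6 libraries was smallest between Plin2 and Plin5 (0.134) and between Acot2 and Plin5 (0.182). It was largest between Pdk4 and Ucp2 (1.11) and between the neighbours Ucp2 and Ucp3 (1.07).

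**Figure D5:**
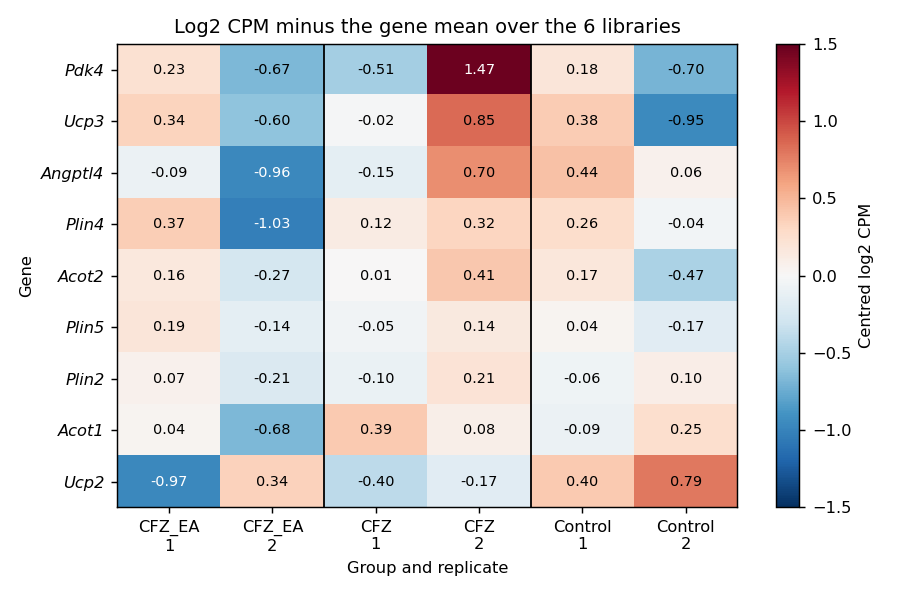
Log2 CPM of each member in every library, centred on the gene's own mean over the 6 libraries (colour and printed value). Pdk4 is at 1.47 in CFZ replicate 2 and -0.70 in control replicate 2, Ucp2 is at -0.17 and 0.79 in these libraries, and Plin2 and Plin5 stay between -0.21 and 0.21.

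By the same measure, the genes with the pattern nearest to each member were found among the 10329 tested genes, leaving out the members themselves. The member Ucp3 was closer to Pdk4 (0.353) than any gene named for Pdk4 below. Nearest to Plin5 were Uri1 (0.0241), Crat (0.037) and Wnt9a (0.0383), and nearest to Plin2 were Eef2kmt (0.0272), Plcl2 (0.0375) and Dctpp1 (0.0385). Acot2 was nearest to Gpam (0.0622), Dnaja3 (0.07) and Gpat3 (0.0755), and Acot1 to Usp10 (0.0888), 1190005I06Rik (0.126) and Ppp4c (0.128). Ucp2 was nearest to Tmem35b (0.115), 2200002D01Rik (0.138) and Cldn15 (0.155), and Plin4 to A630072M18Rik (0.119), Ttll1 (0.129) and Chtf8 (0.146). For Ucp3, Angptl4 and Pdk4 the nearest genes were farther away. Ucp3 had Gsta1 (0.174), Gm15972 (0.241) and Tshz2 (0.26), and Pdk4 had Gm15972 (0.356), Gsta1 (0.367) and Scd4 (0.395), so Gsta1 and Gm15972 stood beside both. Angptl4 had Gm9826 (0.185), Rps23-ps2 (0.2) and Gm10154 (0.209). The likeness is over 6 libraries that share the differences in tissue makeup given above.

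The receptors and cofactors of the PPAR pathway were measured at low to moderate levels, and 0 of the 12 tested of 13 passed in any comparison with edgeR, DESeq2 or limma. At an unadjusted p under 0.05 edgeR had 3 for CFZ against control, 3 for CFZ_EA against CFZ and 0 for CFZ_EA against control. All tested genes had 7.72%, 3.09% and 5.13% under this threshold. The 3 were Pparg, Lpin1 and Med1 in both of the first comparisons, which share the CFZ libraries and so are not separate evidence. For CFZ against control 7 had log2 fold changes above 0 and 5 below (median 0.10), for CFZ_EA against CFZ 6 and 6 (median 0.03), and for CFZ_EA against control 11 and 1 (median 0.07). The last split was 7 and 5 (medians 0.005 and 0.006) with limma on log2(FPKM + 1) and log2(FPKM + 0.1), and the first was 6 and 6 (median -0.04) without CFZ replicate 1. Ppara, the main PPAR of heart muscle, chosen after its values were seen, had 2.24 and 1.81 FPKM in CFZ_EA, 2.73 and 1.45 FPKM in CFZ, and 1.54 and 1.74 FPKM in control. Both CFZ_EA libraries lay above both control libraries, which holds for 10.5% of all tested genes, and CFZ overlapped both other groups; the log2 fold change for CFZ_EA against control was 0.37 ± 0.30 (edgeR adjusted p = 0.877). Rxrg, a retinoid X receptor and the most abundant gene of the list, had 38.0 and 33.7 FPKM in CFZ_EA, 34.7 and 33.9 FPKM in CFZ, and 35.4 and 31.0 FPKM in control. Lpin1, which makes diacylglycerol and is also a coactivator of PPARs, had 6.47 and 4.62 FPKM in CFZ_EA, 13.5 and 9.21 FPKM in CFZ, and 4.90 and 8.77 FPKM in control. Its CFZ libraries were above those of both other groups, with log2 fold changes of 0.79 ± 0.29 for CFZ against control (edgeR adjusted p = 0.617) and -1.02 ± 0.29 for CFZ_EA against CFZ (edgeR adjusted p = 1.0). CFZ lay above control without overlap in 12.5% of all tested genes, and above CFZ_EA in 17.7%. Pparg, the PPAR of fat cells, chosen after its values were seen, had 1.70 and 2.17 FPKM in CFZ_EA, 2.65 and 3.40 FPKM in CFZ, and 1.88 and 2.07 FPKM in control (edgeR adjusted p = 0.608 for CFZ against control). Med1, a cofactor also chosen after its values were seen, had 2.439 and 2.275 FPKM in CFZ_EA, 1.868 and 1.535 FPKM in CFZ, and 2.148 and 2.59 FPKM in control. Its CFZ libraries lay below all others. That held against control for 20.8% of tested genes and against CFZ_EA for 15.1%. Its log2 fold changes were -0.421 ± 0.145 for CFZ against control (edgeR adjusted p = 0.608) and 0.483 ± 0.144 for CFZ_EA against CFZ.

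Other PPAR target genes, of fatty acid uptake and oxidation, gave 28 tested of 33, and 0 passed with edgeR, DESeq2 or limma; at an unadjusted p under 0.05 edgeR had 0 for CFZ against control, 1 for CFZ_EA against CFZ and 0 for CFZ_EA against control. All 28 had log2 fold changes of at least 0 for CFZ against control (median 0.21), while 49.5% of all tested genes were above 0. For CFZ_EA against CFZ 5 were above and 23 below 0 (median -0.08), and for CFZ_EA against control 26 and 2 (median 0.11). Without control replicate 2, the counts for CFZ against control were 21 and 7 with a median of 0.06, and those for CFZ_EA against control 8 and 20 with a median of -0.03. Without CFZ_EA replicate 2, the counts for CFZ_EA against CFZ were 15 and 13 (median 0.009). For CFZ_EA against control they were 17 and 11 (median 0.01) without CFZ_EA replicate 1 and 20 and 8 (median 0.05) with limma at either pseudocount. All 10 cardiomyocyte markers also had log2 fold changes above 0 in both comparisons with control (medians 0.27 for CFZ and 0.17 for CFZ_EA), and their part in the list's values was not tested. Fabp3, the fatty acid carrier of heart muscle, had 6457 and 5431 FPKM in CFZ_EA, 6192 and 7026 FPKM in CFZ, and 6710 and 5651 FPKM in control. Acaa2, the mitochondrial thiolase of beta-oxidation, had 809 and 721 FPKM in CFZ_EA, 847 and 832 FPKM in CFZ, and 812 and 707 FPKM in control. Acadvl and Acadl, the dehydrogenases for very long and long chains, had log2 fold changes of 0.18 ± 0.16 and 0.17 ± 0.19 for CFZ against control.

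Other lipid droplet genes gave 18 tested of 22, with 15 above and 3 below 0 for CFZ against control (median 0.17), 4 and 14 for CFZ_EA against CFZ (median -0.08) and 9 and 9 for CFZ_EA against control (median 0.01). With edgeR on all libraries 0 passed, and at an unadjusted p under 0.05 there was 1 for CFZ against control, 1 for CFZ_EA against CFZ and 0 for CFZ_EA against control, while limma called 0 and DESeq2 called 1 gene, Mgll, in each of the first 2 comparisons. Agpat2, chosen after its values were seen, had log2 fold changes against control of 0.398 ± 0.387 for CFZ and 0.521 ± 0.388 for CFZ_EA (edgeR adjusted p = 0.801 and 0.869). They were 1.18 and 1.31 without control replicate 1, and -0.109 and 0.015 without control replicate 2. Agpat2 had 11.75 FPKM in control replicate 2 and 23.08 to 28.31 FPKM in the other libraries. Without CFZ replicate 2 the counts were 12 and 6 for CFZ against control (median 0.05) and 8 and 10 for CFZ_EA against CFZ (median -0.02), and with limma those for CFZ against control were 13 and 5 at either pseudocount. Fitm1, which helps droplets to form in muscle, had 143 and 142 FPKM in CFZ_EA, 171 and 166 FPKM in CFZ, and 153 and 155 FPKM in control. Pnpla2, the triglyceride lipase ATGL, had 119 and 113 FPKM in CFZ_EA, 123 and 151 FPKM in CFZ, and 132 and 128 FPKM in control. G0s2, the inhibitor of that lipase, had 75.8 and 73.8 FPKM in CFZ_EA, 75.1 and 113 FPKM in CFZ, and 68.5 and 77.8 FPKM in control. Dgat2, which makes triglyceride, had 129 and 107 FPKM in CFZ_EA, 105 and 127 FPKM in CFZ, and 100.1 and 89.5 FPKM in control. Mgll, the monoglyceride lipase, chosen after its values were seen, had 8.29 and 5.81 FPKM in CFZ_EA, 12.6 and 30.3 FPKM in CFZ, and 7.31 and 8.17 FPKM in control. Its CFZ libraries lay above all others, and its log2 fold changes were 1.55 ± 0.43 for CFZ against control (edgeR adjusted p = 0.608) and -1.62 ± 0.43 for CFZ_EA against CFZ (edgeR adjusted p = 1.0). Of all tested genes, 12.5% had CFZ above control without overlap and 17.7% had CFZ above CFZ_EA. The adjusted p in DESeq2 was 0.0266 and 0.0281, and without CFZ replicate 2 the edgeR values were 0.71 and -0.77. Fabp4, a fatty acid carrier of endothelium and fat cells, belongs to the list of other PPAR target genes and was likewise chosen after its values were seen. It had 91.1 and 86.7 FPKM in CFZ_EA, 113 and 157 FPKM in CFZ, and 118 and 111 FPKM in control. It was the 1 gene of that list at an unadjusted p under 0.05 for CFZ_EA against CFZ (log2 fold change -0.599 ± 0.206, edgeR unadjusted p = 0.0271), and it did not pass.

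Pyruvate dehydrogenase and its other kinases and phosphatases were all tested (11 of 11), with 10 above and 1 below 0 for CFZ against control (median 0.22), 6 and 5 for CFZ_EA against CFZ (median 0.01) and 10 and 1 for CFZ_EA against control (median 0.22), and 0 passed with edgeR, DESeq2 or limma, nor was any at an unadjusted p under 0.05 in edgeR. Without control replicate 2 the counts against control were 6 and 5 for CFZ (median 0.0) and 5 and 6 for CFZ_EA (median -0.01). Pdhb, a subunit of the complex, had 161 and 146 FPKM in CFZ_EA, 182 and 163 FPKM in CFZ, and 167 and 134 FPKM in control. Of 6 other uncoupling proteins and relatives 3 were tested, and all 3 were above 0 in both comparisons with control (medians 0.22 for CFZ and 0.07 for CFZ_EA), and 1 above and 2 below for CFZ_EA against CFZ (median -0.03). Slc25a4, the main ADP/ATP carrier of heart, had 2169 and 2045 FPKM in CFZ_EA, 2147 and 2186 FPKM in CFZ, and 2058 and 1793 FPKM in control. Of 13 other acyl-CoA thioesterases 6 were tested, with 3 above and 3 below 0 for CFZ against control and for CFZ_EA against CFZ (medians -0.003 and 0.05) and 4 and 2 for CFZ_EA against control (median 0.16). Acot13, the most abundant, had 259 and 267 FPKM in CFZ_EA, 272 and 292 FPKM in CFZ, and 260.2 and 212 FPKM in control. Lipoprotein lipase and its other regulators gave 5 tested of 11, with 4 above and 1 below 0 for CFZ against control (median 0.11), 2 and 3 for CFZ_EA against CFZ (median -0.01) and 3 and 2 for CFZ_EA against control (median 0.10). Without control replicate 2 the lipase list had 2 above and 3 below 0 in both comparisons with control (medians -0.05 for CFZ and -0.07 for CFZ_EA), and without CFZ replicate 2 it had 2 and 3 for CFZ (median -0.02). Also without control replicate 2, the thioesterases had 1 above and 5 below 0 for CFZ against control (median -0.09), as with limma at either pseudocount, and the uncoupling relatives had 2 and 1 in both comparisons with control (medians 0.06 and 0.03). In these 3 last lists 0 genes passed in any comparison with edgeR, DESeq2 or limma, and edgeR had 0 at an unadjusted p under 0.05.

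Genes of the fasting response that answer to FOXO factors and glucocorticoids gave 20 tested of 21. With edgeR on all libraries and with limma 0 passed. At an unadjusted p under 0.05 edgeR had 3 for CFZ against control, 0 for CFZ_EA against CFZ and 1 for CFZ_EA against control. Over all tested genes the shares were 7.72%, 3.09% and 5.13%. The 3 were Txnip, Zbtb16 and Cdkn1a. Cdkn1a, chosen after its values were seen, was the one of these below 0, with a log2 fold change of -0.91 ± 0.354 (edgeR adjusted p = 0.625). DESeq2 called 1 gene for CFZ against control, Zbtb16. In the same comparison Cebpd stood at -1.22 (log2 fold change, edgeR) without control replicate 1. With all libraries Cebpd was at -0.721 ± 0.399 (edgeR adjusted p = 0.691), and without control replicate 2 at 0.049. Both genes are named here because of their values. For CFZ against control 11 were above and 9 below 0 (median 0.008), for CFZ_EA against CFZ 13 and 7 (median 0.12), and for CFZ_EA against control 15 and 5 (median 0.11). Without CFZ_EA replicate 1 the last 2 were 10 and 10 (median 0.003) and 12 and 8 (median 0.02), without CFZ replicate 2 CFZ_EA against CFZ had 11 and 9 (median 0.03), and limma gave 8 and 12 for CFZ against control (median -0.05 at either pseudocount). Txnip, an inhibitor of glucose uptake, had 78.9 and 92.2 FPKM in CFZ_EA, 184 and 96.9 FPKM in CFZ, and 79.7 and 66.2 FPKM in control. Its CFZ libraries were both above all others, with the highest in replicate 1 and not in replicate 2 where Pdk4 was highest, and its log2 fold change for CFZ against control was 0.98 ± 0.29 (edgeR adjusted p = 0.608). Such a separation from control was seen in 12.5% of all tested genes, and from CFZ_EA in 17.7%. Mt1, a metallothionein induced by glucocorticoids, had 63.3 and 75.9 FPKM in CFZ_EA, 50.7 and 97.6 FPKM in CFZ, and 86.8 and 103 FPKM in control. Trim63 and Ddit4, FOXO and glucocorticoid targets of muscle, had log2 fold changes of 0.02 ± 0.23 and -0.02 ± 0.26 for CFZ against control, -0.10 ± 0.23 and 0.11 ± 0.26 for CFZ_EA against CFZ, and -0.08 ± 0.23 and 0.10 ± 0.26 for CFZ_EA against control.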

How the data were processed

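Heart RNA of 6 libraries, 2 per group, was analysed. Per the labels' protocols, RNA of integrity number over 7 went through 2 rounds of oligo(dT) selection and a dUTP kit that marks strand, and was read as pairs of 150 bases on a NovaSeq. Per the submitters' processing notes, StringTie 1.3.4d, HISAT2 2.0.4, cutadapt 1.9 and the build GRCm38 were used; for their roles, the annotation, filters and the use of strand in counting, no statement was found (not given in the sources used here). The deposited FPKM values and estimated counts were made by the authors, per the file headers; the counts were rounded to whole numbers. Multiples of 4 made up 42.2% to 43.3% of the counts between 1 and 20, where chance gives 25%, so counts may not equal reads and counting error may be larger than they show.

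Genes with a mean of at least 1 FPKM were fitted with edgeR 4.0.16 (quasi-likelihood test, TMM factors, group as the only term, 3 residual degrees of freedom, Benjamini-Hochberg over 10329 genes, called under 0.05) in R 4.3.3. Intervals are 95% intervals from that fit. No exact test was run, since its smallest p with 2 libraries a side is 0.333. CPM for patterns used a prior count of 2. The steps were tested on simulated data. Alternatives were DESeq2 1.42.0 (test and size factors), no filter, limma 3.58.1 on log2(FPKM + 1) and log2(FPKM + 0.1), the replicate number as a block, each library left out, and Acot1 and Acot2 summed; leaving out control replicate 2 together with CFZ_EA replicate 2, and all alternatives for the lists, were added after seeing the data. Coding sequences, coordinates and overlaps were read from GENCODE M21 and promoters from RefSeq (GRCm38.p6).

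The members and lists were chosen with earlier results of these data known. Named beside the members are up to 4 genes of highest mean FPKM per list, the 3 nearest genes by pattern and genes a result turns on; genes outside this rule are said to be chosen after their values were seen.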

Additional observations from a re-analysis of the deposited data

How the results depend on the processing

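No member passed in any of 357 alternative values; the lowest adjusted p was 0.178 (Ucp2, CFZ_EA against control, without control replicate 2 and CFZ_EA replicate 2). The direction held in 311 and turned in 46, 25 of them with 1 library left out. The cause was not tested. Counts of called genes were 138 (CFZ against control), 55 (CFZ_EA against CFZ) and 51 (CFZ_EA against control) with DESeq2, and 32 and 1 for the first and last comparison without control replicate 2 and CFZ_EA replicate 2. Leaving out each library in turn gave 0 to 332, 0 to 4 and 0 to 231. The highest, 332 and 231, came without control replicate 1, where control was replicate 2 alone and was assumed to vary like the other groups. For CFZ against control the count was 0 without CFZ_EA replicate 1, CFZ_EA replicate 2 or CFZ replicate 1. For CFZ_EA against CFZ it was 0 without CFZ_EA replicate 2 or CFZ replicate 1 and 4 without CFZ replicate 2, and for CFZ_EA against control it was 1 without control replicate 2. Of 312 alternative medians of the 8 lists, 9 moved by more than the median standard error of the list's genes.

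Over the tested genes, deviations of same-numbered libraries from their group means correlated at -0.066 (CFZ and control), 0.075 (CFZ_EA and CFZ) and -0.055 (CFZ_EA and control). With 2 libraries a group the 2 deviations mirror each other, so these values cannot show whether the replicate number pairs the libraries. With the number as a block, 2, 2 and 0 genes were called, against 3, 2 and 0 without it, 0 members were called, and Ucp2 turned to -0.007 for CFZ_EA against CFZ.

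Log2 fold changes turned as follows. With limma on log2(FPKM + 1) and log2(FPKM + 0.1), CFZ against control gave -0.016 and -0.029 for Angptl4 and -0.018 and -0.019 for Plin2, CFZ_EA against CFZ gave -0.021 and -0.04 for Ucp2, and CFZ_EA against control gave -0.027 and -0.029 for Pdk4. Without control replicate 2 and CFZ_EA replicate 2, CFZ against control gave -0.109 for Angptl4 and -0.043 for Plin4. CFZ_EA against CFZ then gave -0.691 for Ucp2, 0.011 for Plin2, 0.147 for Plin4 and 0.142 for Plin5, and CFZ_EA against control gave -0.046 for Ucp3, 0.127 for Acot1, -0.016 for Acot2, 0.133 for Plin2 and 0.103 for Plin4. With Acot1 and Acot2 summed, CFZ_EA against control gave -0.027.

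With 1 library left out, values that turned for CFZ against control ran from -0.415 to 0.437 (Angptl4), -0.317 to 1.66 (Pdk4), -0.006 to 0.33 (Acot1), -0.121 to 0.187 (Plin2) and -0.043 to 0.271 (Plin4). For CFZ_EA against CFZ they ran from -1.62 to 0.358 (Pdk4), -0.693 to 0.631 (Ucp2), -0.272 to 0.04 (Plin2), -1.24 to 0.144 (Plin4) and -0.18 to 0.139 (Plin5). For CFZ_EA against control they ran from -0.472 to 0.552 (Pdk4), -0.461 to 0.902 (Ucp3), -0.214 to 0.441 (Acot2), -0.223 to 0.049 (Plin2), -1.14 to 0.248 (Plin4) and -0.072 to 0.247 (Plin5).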

Other observations

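Zbtb16, a transcription factor induced by glucocorticoids, was chosen after its values were seen. It had 1.54 and 1.33 FPKM in CFZ_EA, 1.66 and 1.37 FPKM in CFZ, and 0.913 and 0.953 FPKM in control. All 4 libraries of carfilzomib-treated mice lay above both control libraries. Among all tested genes, 12.5% had CFZ and 10.5% had CFZ_EA above control in this way. The log2 fold change was 0.75 ± 0.18 for CFZ against control (edgeR adjusted p = 0.608, DESeq2 adjusted p = 0.0326) and 0.68 ± 0.18 for CFZ_EA against control (edgeR adjusted p = 0.848, DESeq2 adjusted p = 0.153), and both comparisons use the same control libraries. Fgf21, a fasting hormone under PPAR control, also chosen after its values were seen, was measured at 0 to 0.114 FPKM in the 6 libraries.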
